A study of Mus musculus with 20 samples.

Results

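The cytosolic heat shock chaperones examined here are 10 genes of the heat shock protein 70 (HSP70) and heat shock protein 90 (HSP90) machinery: Hspa1a, Hspa1b, Dnajb1, Dnaja1, Hsph1, Hspa8, Hsp90aa1, Hsp90ab1, Bag3 and Chordc1. The rule names them by symbol and uses no measured value, although earlier results of these data were known when it was set. Their 10 rows were found by Ensembl gene among the 22165 genes of the count table. All 10 passed the low-count filter that left 10663 genes for testing. RNA had been sequenced from 20 libraries of macrophages grown from bone marrow of wild-type C57BL/6 mice for 7 days with macrophage colony-stimulating factor (M-CSF). The cells received lipopolysaccharide (LPS) and interferon gamma (IFNg) and were sampled at 0, 1, 2, 4 and 6 h. In 10 libraries (DI) they had been given 250 µM dimethyl itaconate for 12 h before the stimulus, and the other 10 libraries (Ctrl) are labelled as controls. What the control cells received in place of dimethyl itaconate is not given in the sources used here. Each time and arm has 2 libraries, 10 groups in all, and the DI 0 h group had the pretreatment but no stimulus.

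Dimethyl itaconate is a cell-permeable, electrophilic ester of itaconate, a metabolite that macrophages make after LPS. HSP70 proteins bind exposed stretches of other proteins and release them in a cycle driven by ATP: J-domain proteins deliver the client and start ATP hydrolysis, and nucleotide exchange factors reset the cycle. HSP90 takes over partly folded clients, among them many kinases. Heat shock factor 1 (HSF1) is held back by these chaperones in unstressed cells; misfolded protein or reactive electrophiles release it, and it then binds heat shock elements, inverted repeats of the letters GAA, in the promoters of many of these same genes.

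The promoter stretches below are shown because they let the reader see which members carry that element near their start. RefSeq promoter windows (GRCm38.p6, 250 bases before to 50 after an annotated start) were at hand for 7 of the 10 genes, in 11 windows. Windows of Hspa8, Hsp90aa1 and Hsp90ab1 were not used here. Both strands were searched for GAANNTTC and for TTCNNGAA, each of which reads the same on the opposite strand and each of which holds 2 units of the element. Capitals mark matches, which may overlap and run together. Positions count from 1 at the annotated start, and -1 is the base before it. The Hspa1b stretch (chr17:34959239-34959368, minus strand) covers -130 to -1. That of Dnaja1 (chr4:40722334-40722361, plus strand) covers -134 to -107 of 1 of its 3 annotated starts. The first Hsph1 stretch, from 1 of its 2 windows (chr5:149636352-149636379, minus strand) covers -43 to -16, and the second (chr5:149636287-149636309, minus strand) 28 to 50. The Chordc1 stretch (chr9:18292259-18292288, plus strand) covers -8 to 22, and that of Bag3 (chr7:128523605-128523632, plus strand) 23 to 50.
Hspa1b: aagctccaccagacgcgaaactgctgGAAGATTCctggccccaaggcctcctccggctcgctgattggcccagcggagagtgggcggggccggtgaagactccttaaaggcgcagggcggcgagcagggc
Dnaja1: aaagcctctaGAAAATTCtacgaggctc
Hsph1 upstream: ggtagaatctTTCTCGAAggctcgagaa
Hsph1 downstream: tgctgcagaTTCTGGAAAGTTCt
Chordc1: accgGAACGTTCGGGAAAATTCCTGAAgca
Bag3: aagttctctggatgggaccaGAAGTTTC

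A 2-unit element lay in a window of 6 of the 7 members, all but Dnajb1, against 16.97% of the 27025 genes with a window and 15.06% of all 32851 windows. A run of 3 units, in which both patterns overlap by 1 unit, lay in Chordc1 and Hsph1, against 0.6623% of genes and 0.6027% of windows. The letters CCAAT, on either strand, lay in 5 of 7 members and in 41.06% of genes. These counts describe letters in fixed windows. A gene with more windows has more chances of a match, and Dnaja1, Hsph1 and Dnajb1 have over 1 window each. They do not show that a factor bound there, and the missing match for Dnajb1 says nothing about elements outside its windows. Hspa1a and Hspa1b are single-exon genes on the same strand of chromosome 17, 9951 bases apart. Their windows were identical at 296 of 300 bases, so the Hspa1b stretch stands for both and their matches are not independent.

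**Figure D1:**
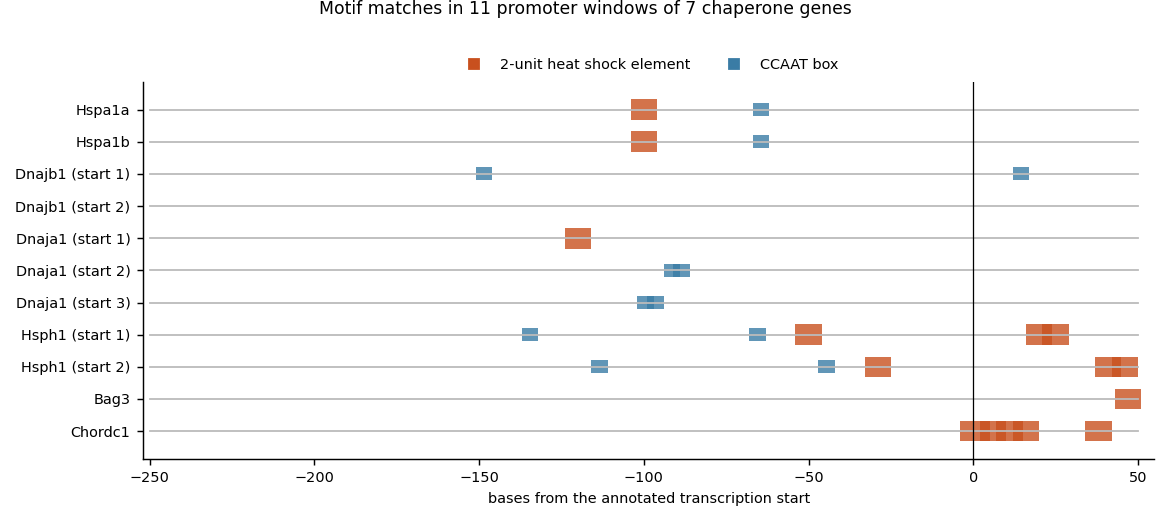
Matches to the 2-unit heat shock element (orange) and to CCAAT (blue) in 11 RefSeq promoter windows of 7 chaperone genes; the horizontal axis is the distance in bases from the annotated transcription start, and each line is 1 window. Hspa1a and Hspa1b have 1 heat shock match each at the same distance before the start, Chordc1 has a cluster of overlapping matches at its start, and neither Dnajb1 window has one.

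The libraries hold between 3655977 and 8938983 counts in Ctrl and between 3982073 and 6725447 in DI, and the 10 chaperones took from 0.543% to 1.44% of a Ctrl library and from 0.821% to 2.02% of a DI library. DI libraries listed more genes at 0 (11143 to 12356) than Ctrl libraries (9301 to 10859). Reads per sampled RNA molecule were estimated from how often genes with 4 to 12 expected reads were at 0. The estimate was 1.82 to 3.31 reads in Ctrl and 3.58 to 10.2 in DI. By it, low members rest on fewer molecules in DI than their counts show. Expected reads came from the other libraries of the same arm at all times, so genes that change over time can raise the estimate. Macrophage markers were detected for 11 of 11 genes, with a summed level of 5299 to 7489 CPM (read counts scaled to a common library size) in Ctrl and 3622 to 6199 in DI. Neutrophil markers summed to 260.1 to 664 CPM in Ctrl and 299 to 556 in DI, 8 of 8 detected, with S100a8 at 79.2 to 246 CPM and S100a9 at 149 to 385. Of the other neutrophil markers, Ngp was at 10.01 to 53.2 CPM, Ltf at 3.01 to 35.6 and Camp at 0 to 13.7, and Ly6g, Mpo and Elane were at 0 to 3.11. Fibroblast markers, 5 of 5 detected, summed to 38.5 to 68.7 CPM in Ctrl and 5.30 to 39.7 in DI. T and NK cell markers summed to at most 1.93 CPM in any library, 4 of 6 detected, with Cd3e and Ncr1 at 0, and B cell markers (4 of 4 detected) to at most 5.02. Dendritic cell markers (4 of 4 detected) summed to 6.14 to 16.7 CPM in Ctrl and 3.79 to 23.6 in DI, and mast cell markers (3 of 3 detected) to at most 7.47. The lower estimated number of sampled molecules was looked at only through alternative fits, given below, which do not decide whether it had a part in any chaperone difference. Whether other cells had a part was not tested. In bulk RNA, fewer cells of a type and less RNA per cell cannot be told apart.

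Levels are given in CPM after TMM scaling, which sets library sizes by trimmed means of gene ratios. Differences are log2 fold changes with their standard error from 1 edgeR quasi-likelihood model of all 20 libraries. A gene is called where its p, Benjamini-Hochberg adjusted over the 10663 tested genes of that comparison, is under 0.05. The labels do not say whether the 2 libraries of a group come from separate mice or cultures, so p-values measure the spread between these libraries, which may be technical.

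Of the 2 stress-inducible HSP70 genes, Hspa1b was called in several comparisons and Hspa1a in none. Hspa1b, which encodes an HSP70 that is made in quantity after heat or other protein-damaging stress, rose in Ctrl cells within the first hours of stimulation and stayed above its starting level. In DI cells it was not called at 1, 2 or 4 h and then rose at 6 h to the highest level of any group.

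In Ctrl, Hspa1b stood at 2.72 and 3.83 CPM at 0 h, 10.2 and 12.1 at 1 h, 13.5 and 24.0 at 2 h, 14.7 and 16.5 at 4 h, and 12.9 and 12.3 at 6 h. In DI it stood at 6.72 and 6.11 CPM at 0 h, 10.2 and 4.04 at 1 h, 8.40 and 7.22 at 2 h, 5.61 and 2.39 at 4 h, and 48.1 and 25.2 at 6 h. Every stimulated Ctrl library was above both unstimulated ones. In DI, both 6 h libraries were above the other 8, and the 4 h libraries were both below those of 0 h. Between the arms the groups overlapped only at 1 h. DI was above Ctrl at 0 and 6 h and below it at 2 and 4 h. Ordered by mean (± SD, n = 2), DI at 6 h came first with 36.6 ± 16.2 CPM, then Ctrl at 2 h (18.8 ± 7.40), 4 h (15.6 ± 1.28), 6 h (12.6 ± 0.443) and 1 h (11.1 ± 1.33), and then the DI groups of 2, 1, 0 and 4 h and Ctrl at 0 h. Of these neighbours, the libraries of Ctrl at 2 and 4 h overlapped, as did those of DI at 2, 1 and 0 h and of DI at 4 h with Ctrl at 0 h.

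Against its own 0 h, Ctrl Hspa1b was higher by 1.77 ± 0.51 at 1 h (edgeR adjusted p = 0.0495), 2.53 ± 0.52 at 2 h (adjusted p = 0.00105), 2.25 ± 0.52 at 4 h (adjusted p = 0.00189) and 1.94 ± 0.52 at 6 h (adjusted p = 0.00688). It was the 1 member called higher at 1 h, where 3.65% of all tested genes were called higher, the 1 called higher at 2 h (9.13% of all genes) and the 1 called higher at 4 h (14.7%). In DI the change from 0 h was 0.14 ± 0.51 at 1 h, 0.29 ± 0.51 at 2 h and -0.67 ± 0.54 at 4 h, none called by edgeR, and 2.52 ± 0.51 at 6 h (adjusted p = 8.05e-04), a 5.72-fold rise. The calls at 2 and 4 h in Ctrl and at 6 h in DI were kept without any 1 of the 4 libraries they compare. The Ctrl call at 1 h was lost without any 1 of its libraries, with adjusted p from 0.133 to 0.518, and with TMM factors of genes of at least 32 CPM (adjusted p = 0.0746) or library totals (0.146). The call at 6 h was lost without the first Ctrl 0 h library (adjusted p = 0.0923).

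Comparing the arms directly, Hspa1b was lower in DI at 4 h by 1.95 on the log2 scale (-1.95 ± 0.54, 95% interval -3.07 to -0.84, edgeR adjusted p = 0.0222), or 3.87-fold. It was higher in DI at 6 h by 1.55 ± 0.50 (interval 0.51 to 2.58, adjusted p = 0.0391), or 2.92-fold. At 4 h it was the 1 member called, where 9.43% of all tested genes were called and 6.00% were called lower. At 6 h it was 1 of 2 members called, where 14.2% were called and 5.24% called higher. At 2 h the difference was -1.27 ± 0.51 and at 0 h 0.97 ± 0.51, neither called. The 9 reads of the second DI 4 h library amount to an estimated 0.879 molecules, and the 23 reads of the first to 3.53. With only the groups compared in the fit the 4 h difference was -1.87 (adjusted p = 0.0749), with counts divided by reads per molecule it was -1.63 (adjusted p = 0.113), and without the 3 DI libraries that list the most genes at 0, among them the second at 4 h, it was -1.48 (adjusted p = 0.132). It also lost its call without either Ctrl 4 h library (adjusted p = 0.0751 and 0.124) and without the second DI 4 h library alone (-1.48, adjusted p = 0.211). The 6 h difference lost its call without the first DI 6 h library (1.00, adjusted p = 0.292) and without either Ctrl 6 h library (adjusted p = 0.186 and 0.203).

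The test of whether the response itself differed between the arms, the DI change from 0 h minus the Ctrl change, called none of the 10 members at any time. The shares of all genes called in this test were 0.253%, 0.356%, 0.760% and 1.55% at 1, 2, 4 and 6 h, and 1, 2, 2 and 1 members had an unadjusted p under 0.05. DESeq2's Wald test called 0, 0, 1 and 0 members, and the shares of all genes that it called are not given here. Hspa1b at 4 h came nearest, at -2.92 ± 0.75 (interval -4.46 to -1.38, edgeR adjusted p = 0.0681). At 1, 2 and 6 h its response difference was -1.63 ± 0.72, -2.24 ± 0.72 and 0.58 ± 0.72.

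Hspa1a, the neighbouring copy, encodes a nearly identical HSP70 and was measured at lower counts, from 0 to 88 reads a library. In Ctrl it stood at 3.04 and 2.02 CPM at 0 h, 4.12 and 5.36 at 1 h, 5.91 and 11.1 at 2 h, 2.78 and 5.43 at 4 h, and 10.7 and 6.88 at 6 h. The DI libraries had 3.53 and 2.77 CPM at 0 h, 4.82 and 2.23 at 1 h, 1.82 and 0 at 2 h, 3.66 and 0 at 4 h, and 18.1 and 13.6 at 6 h. The DI 6 h libraries were above all others. The second DI libraries at 2 and 4 h had no read. If each read were a separate molecule, that would allow up to 0.774 and 0.795 CPM (3 counts). At the estimated 7.05 and 10.2 reads per molecule in these libraries, no read allows a higher level than that. No contrast of the edgeR model called it. Its change at 6 h in DI was 2.33 ± 0.90 (edgeR adjusted p = 0.0710), which 5 of 10 other settings called: DESeq2's Wald test (2.33, adjusted p = 0.0268), no filter on low counts (0.02), only the groups compared (0.0455), counts per estimated molecule (0.00708) and without the 3 DI libraries that list the most genes at 0 (0.00652). Leaving out 1 library gave an adjusted p of 0.1 to 0.25 and no call. In Ctrl its changes at 2 h (1.75) and 6 h (1.78) were each called in 2 of 9 other settings, the groups compared alone and counts per estimated molecule. The difference between the arms at 2 h, -3.16 ± 1.03 (edgeR adjusted p = 0.0680), rests on 8 reads in the DI arm and was called in 3 of 10 other settings, with no filter, by DESeq2's Wald test and per estimated molecule.

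Because the gene pair is so alike, a read could match both copies, and how the authors' counting treated such reads was not examined. Any read left out of both rows is also missing from their sum. Windows of 50 bases shared with the other copy made up 58.8% of the Hspa1a transcript and 62.3% of that of Hspa1b, but 0% of the last 500 bases, where 3'-end libraries are read. With the counts of both added, the sum was higher in Ctrl at 2 h (2.24 ± 0.50, edgeR adjusted p = 0.00252), 4 h (1.76 ± 0.50, adjusted p = 0.0103) and 6 h (1.88 ± 0.50, adjusted p = 0.00656), and in DI at 6 h (2.46 ± 0.50, adjusted p = 8.19e-04). The sum was lower in DI than in Ctrl at 4 h (-1.75 ± 0.52, adjusted p = 0.0350). At 6 h the difference of 1.30 ± 0.49 was not called (adjusted p = 0.0771), nor was the Ctrl change at 1 h, 1.45 ± 0.49 (adjusted p = 0.129).

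**Figure D2:**
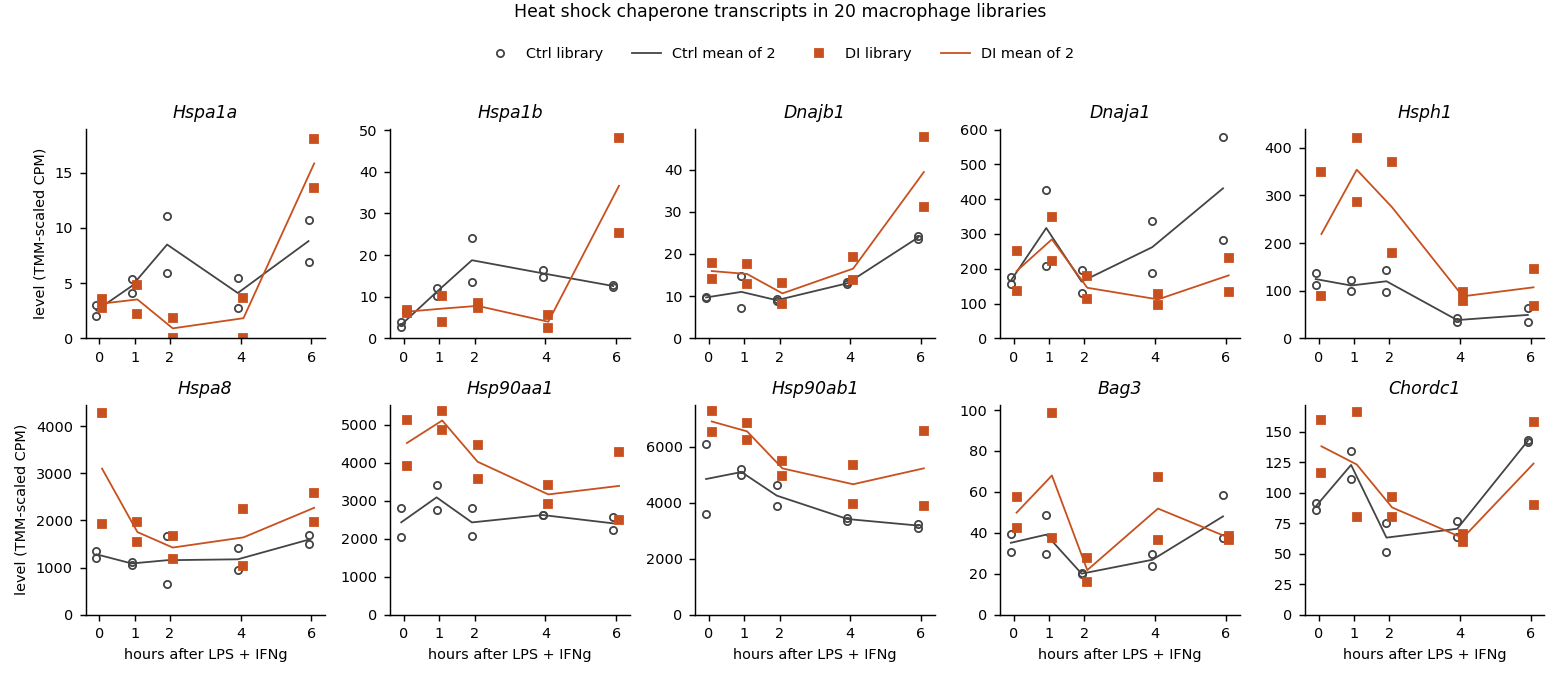
Level of each of the 10 chaperones in CPM with TMM scaling (vertical axes, each from 0 to its own maximum) against hours after LPS and IFNg; open circles are Ctrl libraries, filled squares DI libraries, and lines join the means of 2. Hspa1a, Hspa1b and Dnajb1 reach their highest levels in the DI libraries at 6 h, while Hsph1, Hsp90aa1 and Hsp90ab1 have their highest means in DI at 0 or 1 h.

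Among the J-domain partners of HSP70, Dnajb1 rose late in both arms, whereas Dnaja1 rose at 6 h in Ctrl, was not called at any time in DI, and was lower in DI than in Ctrl at 6 h. Dnajb1 encodes the J-domain protein best known for joining inducible HSP70 in refolding and in restraining HSF1. In Ctrl its level was 9.92 and 9.48 CPM at 0 h, 14.9 and 7.14 at 1 h, 8.86 and 9.23 at 2 h, 12.8 and 13.4 at 4 h, and 23.6 and 24.2 at 6 h. In DI it was 17.8 and 14.1 CPM at 0 h, 17.7 and 12.8 at 1 h, 8.17 and 13.2 at 2 h, 19.3 and 13.8 at 4 h, and 47.7 and 31.1 at 6 h. The 6 h libraries of each arm were above every other library of that arm, and both DI 6 h libraries were above both Ctrl 6 h libraries.

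From 0 to 6 h Dnajb1 rose by 1.30 ± 0.42 in Ctrl (edgeR adjusted p = 0.0214) and by 1.31 ± 0.41 in DI (adjusted p = 0.0242), and the difference between these responses was 0.01 ± 0.63, with an interval of -1.29 to 1.30. DI against Ctrl was 0.71 ± 0.41 at 0 h and 0.72 ± 0.41 at 6 h, neither called. At 6 h in Ctrl, Dnajb1 was 1 of 3 members called higher, beside Hspa1b and Dnaja1 (15.2% of all genes), and at 6 h in DI 1 of 2, beside Hspa1b (11.2% of all genes). The Ctrl rise lost its call without any 1 of its 4 libraries (adjusted p from 0.0876 to 0.135). The DI rise kept its call only without the second DI 6 h library, and without the other 3 in turn the adjusted p was 0.0533 to 0.175. With TMM factors of genes of at least 32 CPM neither rise was called (1.00, adjusted p = 0.0799, in Ctrl and 1.14, adjusted p = 0.0552, in DI), nor was the DI rise with only the groups compared (1.30, adjusted p = 0.0946).

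Dnaja1 encodes a more abundant J-domain protein that serves HSC70 under normal growth. In Ctrl it stood at 176 and 156 CPM at 0 h, 209 and 425 at 1 h, 130.5 and 196 at 2 h, 336 and 188 at 4 h, and 579 and 284 at 6 h. Its DI libraries had 136 and 251 CPM at 0 h, 348 and 221 at 1 h, 178 and 113 at 2 h, 97.1 and 127 at 4 h, and 132 and 230.2 at 6 h. The arms did not overlap at 4 and 6 h, with DI lower, and overlapped at the earlier times.

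Dnaja1 rose by 1.38 ± 0.42 from 0 to 6 h in Ctrl (edgeR adjusted p = 0.0153), against -0.10 ± 0.41 in DI (adjusted p = 0.909). It was lower in DI at 6 h by 1.25 on the log2 scale (-1.25 ± 0.42, interval -2.11 to -0.39, adjusted p = 0.0445), or 2.38-fold, the 1 member called lower there (8.95% of all genes), and the difference at 4 h was -1.23 ± 0.42 (adjusted p = 0.0662). The response difference at 6 h, -1.47 ± 0.58, was not called (adjusted p = 0.281). One library carries much of this: without the first Ctrl 6 h library, at 579 CPM, DI against Ctrl was -0.65 (adjusted p = 0.516) and the Ctrl rise 0.77 (adjusted p = 0.324). Without the first DI 6 h library DI against Ctrl was -0.91 (adjusted p = 0.268). It was also not called with TMM factors of genes of at least 32 CPM (-1.12, adjusted p = 0.0629) or with only the groups compared (-1.20, adjusted p = 0.0719), and the Ctrl rise was also not called without the first or the second Ctrl 0 h library (adjusted p = 0.0764 and 0.126).

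**Figure D3:**
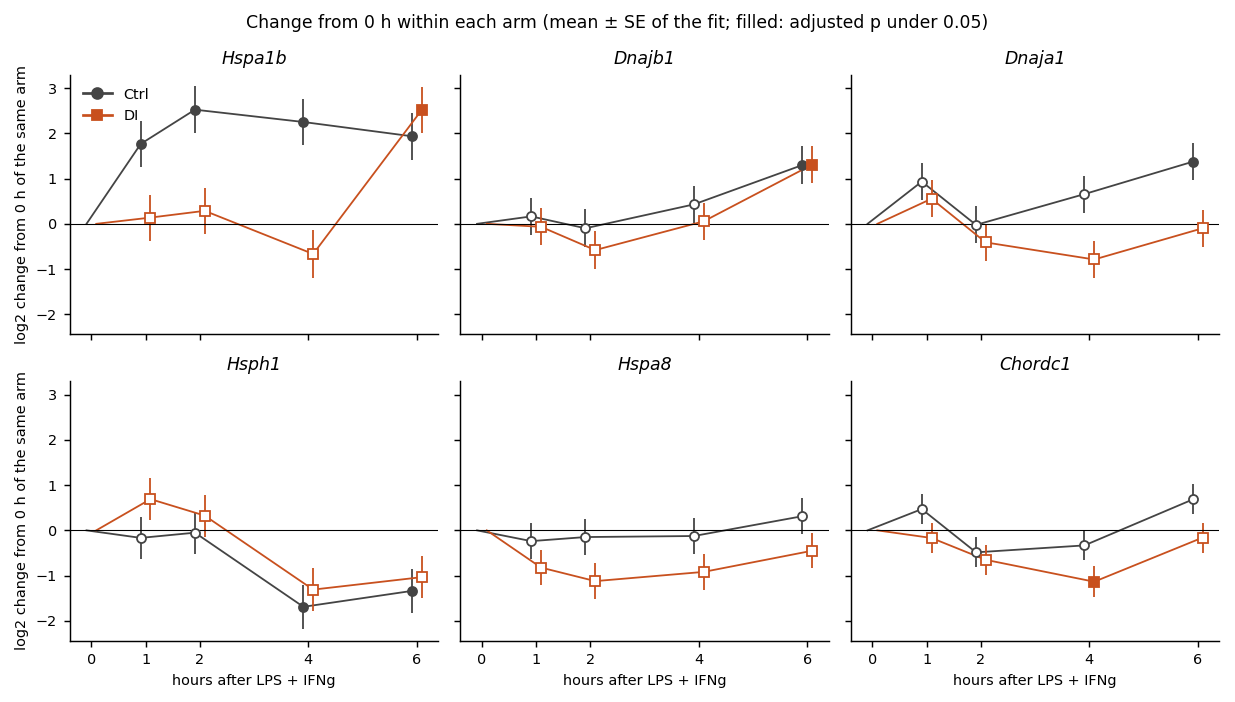
Change from 0 h of the same arm in 6 of the chaperones, as log2 fold change (vertical axis) against hours after LPS and IFNg, grey circles for Ctrl and orange squares for DI; bars are the standard error of the fit and filled points have an adjusted p under 0.05. Hspa1b is filled at all 4 Ctrl times and in DI at 6 h alone, and the 2 lines of Dnajb1 meet at 6 h near 1.30.

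The nucleotide exchange factors of HSP70 in the set are Hsph1 and Bag3. Hsph1 encodes the HSP110 protein HSP105, which also keeps unfolded proteins soluble and helps to take aggregates apart. It was higher in DI than in Ctrl at 1 h and fell in Ctrl at 4 and 6 h. In Ctrl it stood at 137 and 112 CPM at 0 h, 122 and 99.8 at 1 h, 96.5 and 143 at 2 h, 33.3 and 43.5 at 4 h, and 64.4 and 34.1 at 6 h. The DI values were 88.7 and 349 CPM at 0 h, 287 and 421 at 1 h, 179 and 371 at 2 h, 98.3 and 78.2 at 4 h, and 67.8 and 146 at 6 h. From 1 h on, both DI libraries were above both Ctrl libraries at every time, while at 0 h the first DI library lay below both Ctrl libraries and the second above them.

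At 1 h Hsph1 was higher in DI by 1.68 ± 0.48 (interval 0.69 to 2.66, edgeR adjusted p = 0.0397), or 3.19-fold. It was the 1 member called there, against 4.89% of all genes called and 1.86% called higher. At 2, 4 and 6 h the differences were 1.20 ± 0.47, 1.20 ± 0.48 and 1.12 ± 0.48, with adjusted p of 0.142, 0.126 and 0.135. In Ctrl it fell by 1.69 on the log2 scale at 4 h (-1.69 ± 0.49, adjusted p = 0.0116) and by 1.34 at 6 h (-1.34 ± 0.48, adjusted p = 0.0418), the 1 member called lower at each time (9.58% and 11.3% of all genes). In DI the changes at 4 and 6 h were -1.31 ± 0.47 (adjusted p = 0.0555) and -1.04 ± 0.47 (adjusted p = 0.129), and the response differences, 0.38 ± 0.67 and 0.30 ± 0.67, were not called. The call at 1 h was kept only without the first DI 1 h library (adjusted p = 0.0438 against 0.215 to 0.315 without the other 3 in turn). The falls in Ctrl each kept their call without 1 of their 4 libraries: at 4 h without the second Ctrl 0 h library, against an adjusted p of 0.0615 to 0.133, and at 6 h without the first Ctrl 6 h library, against 0.0955 to 0.336.

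Bag3 encodes a co-chaperone that links HSP70 to selective autophagy and is a common HSF1 target. Its level was between 19.8 and 58.3 CPM over the 10 Ctrl libraries, with the lowest pair at 2 h (20.2 and 19.8), and between 16.0 and 98.5 CPM over the 10 DI libraries, with the lowest pair also at 2 h (27.5 and 16.0). No contrast of the main edgeR model called it. The largest differences were -1.19 ± 0.42 for DI at 2 h against 0 h (edgeR adjusted p = 0.0722) and 0.95 ± 0.42 for DI against Ctrl at 4 h (adjusted p = 0.168). The fall in DI at 2 h was called in 3 of 10 other settings. These were no filter on low counts, TMM factors of genes of at least 32 CPM (-1.33, adjusted p = 0.0377) and library totals (-1.63, adjusted p = 0.00952). Library totals alone also called falls in Ctrl at 2 and 4 h.

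The chaperones Hspa8, Hsp90aa1 and Hsp90ab1 took most of the reads of the 10 genes. No contrast of the main edgeR model called any of them, but other scalings called falls from 0 h. With TMM factors of genes of at least 32 CPM, Hsp90ab1 was called lower in Ctrl at 4 h (-0.85, edgeR adjusted p = 0.0207) and 6 h (-0.91, adjusted p = 0.0129). In DI that scaling called Hsp90ab1 lower at 4 h (-0.80, adjusted p = 0.0358) and Hspa8 at 2 h (-1.24, adjusted p = 0.0403) and 4 h (-1.13, adjusted p = 0.0417). Library totals called these and further falls. Hspa8 encodes HSC70, the HSP70 present in all cells, which also works in clathrin uncoating and chaperone-mediated autophagy. In Ctrl it stood at 1350.3 and 1212 CPM at 0 h, 1111 and 1061 at 1 h, 648 and 1663 at 2 h, 1408 and 941 at 4 h, and 1499 and 1684 at 6 h. In DI it stood at 1927 and 4279.6 CPM at 0 h, 1547 and 1960.1 at 1 h, 1662 and 1187 at 2 h, 2249 and 1033 at 4 h, and 2581 and 1959 at 6 h. The second DI 0 h library was the highest of the 20. The arms did not overlap at 0, 1 and 6 h, with DI higher, and DI against Ctrl was 1.28 ± 0.40 at 0 h (edgeR adjusted p = 0.0819). Without the first DI 0 h library that difference was 1.73 and was called (adjusted p = 0.0243), and without the second it was 0.58 (adjusted p = 0.621).

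Hsp90aa1 encodes the stress-responsive HSP90 isoform and Hsp90ab1 the constitutive one. In Ctrl, Hsp90aa1 lay between 2049 and 3419.7 CPM at all times. In DI it stood at 5120.2 and 3922 CPM at 0 h, 5363 and 4867 at 1 h, 4474 and 3580.1 at 2 h, 2907 and 3425 at 4 h, and 2502 and 4278 at 6 h. All DI libraries were above the Ctrl libraries of the same time from 0 to 4 h, and the arms overlapped at 6 h. The difference was 0.90 ± 0.27 at 0 h (interval 0.33 to 1.46, edgeR adjusted p = 0.0728) and 0.73 ± 0.27 at both 1 and 2 h. At 4 and 6 h it was 0.27 ± 0.27 and 0.50 ± 0.27. DESeq2's Wald test and the fit on estimated molecules called it at 0 h.

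Hsp90ab1 lay between 3108 and 6082 CPM in Ctrl and between 3885 and 7284 CPM in DI. Both DI libraries were above both Ctrl libraries at each of the 5 times. The difference, DI against Ctrl, ran from 0.30 ± 0.27 at 2 h to 0.72 ± 0.27 at 6 h, where the edgeR adjusted p was 0.0811. It was called at 6 h under 2 other scalings, TMM factors of genes of at least 32 CPM (0.84, adjusted p = 0.0378) and library totals without TMM factors (0.91, adjusted p = 0.0212), and without the first DI 6 h library, at 3885 CPM, the difference was 1.04 (adjusted p = 0.0223).

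Chordc1 encodes morgana, a CHORD-domain co-chaperone of HSP90. In Ctrl it stood at 91.3 and 86.3 CPM at 0 h, 111 and 135 at 1 h, 51.4 and 74.9 at 2 h, 63.6 and 77.2 at 4 h, and 144 and 142 at 6 h. In DI it stood at 116 and 160.0 CPM at 0 h, 167 and 79.9 at 1 h, 96.2 and 79.7 at 2 h, 66.1 and 59.6 at 4 h, and 90.0 and 158 at 6 h. In each arm the 2 and 4 h libraries were all below those of 0 h, and the 6 h libraries of Ctrl were above them, while those of DI at 6 h lay far apart. From 0 to 4 h it fell in DI by 1.14 on the log2 scale (-1.14 ± 0.34, edgeR adjusted p = 0.0187), the 1 member called in that contrast, where 18.7% of all genes were called and 7.34% lower. In Ctrl that change was -0.33 ± 0.33 (adjusted p = 0.521), and the response difference, -0.80 ± 0.47, was not called (adjusted p = 0.610). The DI fall lost its call without either DI 4 h library or the second DI 0 h library (adjusted p from 0.0591 to 0.131), with only the groups compared (0.0778), and without the 3 DI libraries that list the most genes at 0 (0.0821).

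Across the whole set at 0 h, after pretreatment and before any stimulus, all 10 members had a positive log2 fold change in DI against Ctrl, with a median of 0.68 against -0.05 for all tested genes. None was called by edgeR, where 3.60% of all genes were, and 2 (Hspa8 and Hsp90aa1) had an unadjusted p under 0.05. DESeq2's Wald test called those 2. All percentages of genes in this paragraph are edgeR's. In 7 of the 10 the DI and Ctrl libraries did not overlap at 0 h. How many of all tested genes were apart in this way was not counted, so the 7 cannot be read as particular to the members. At 1, 2, 4 and 6 h, 7, 7, 6 and 7 members were positive, with medians of 0.42, 0.26, 0.31 and 0.61, while the medians of all genes were 0.00, -0.03, -0.06 and -0.03. At 2 h edgeR called 0 members (6.24% of all genes), with 4 at an unadjusted p under 0.05, and DESeq2's Wald test called 1, Hspa1a. These comparisons use different libraries at each time, but the members are not independent of each other.

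**Figure D4:**
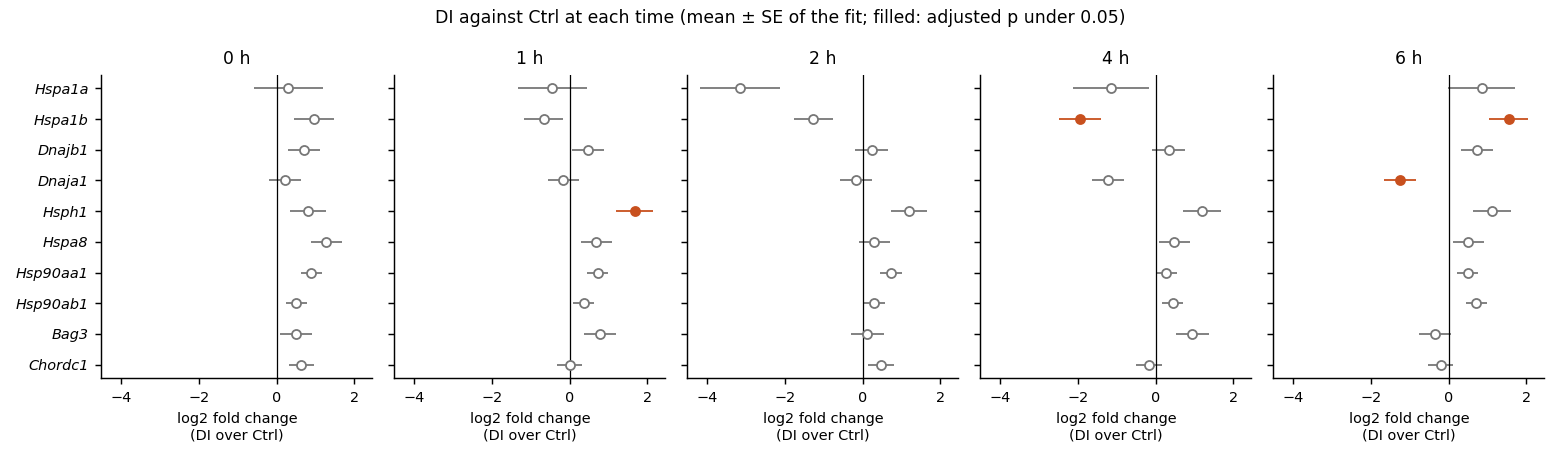
Log2 fold change of DI over Ctrl (horizontal axes) for each chaperone at 0, 1, 2, 4 and 6 h, with the standard error of the fit; filled orange points have an adjusted p under 0.05. All 10 points lie right of 0 at 0 h, Hsph1 is filled at 1 h, Hspa1b at 4 h on the left and at 6 h on the right, and Dnaja1 at 6 h on the left.

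Within the DI arm no member was called at 1 h (3.59% of all genes; 1 member at an unadjusted p under 0.05) or 2 h (11.0%; 2 members) by edgeR, while DESeq2's Wald test called 0 at 1 h and 1, Hspa8, at 2 h. At 4 h 1 member was called (Chordc1, lower) and at 6 h 2 (Hspa1b and Dnajb1, higher; 20.2% of all genes were called in either direction). Within Ctrl the counts were 1, 1, 2 and 4 of 10 at 1, 2, 4 and 6 h, beside 4.07%, 12.2%, 24.3% and 26.5% of all genes. Several of these counts are close to the share of all genes called. The shares are edgeR's, and those of DESeq2's Wald test are not given.

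Changes over time moved with the way the libraries were scaled, and some differences between the arms did too. TMM factors were 1.40 and 1.38 in the Ctrl 0 h libraries and between 0.734 and 0.808 in those of 4 and 6 h. With library totals in place of TMM factors the median of all genes shifted by -0.30, -0.57, -0.86 and -0.82 in Ctrl at 1, 2, 4 and 6 h and by -0.23, -0.45, -0.61 and -0.55 in DI. Members called higher and lower in Ctrl at 6 h then numbered 0 and 3 in place of 3 and 1, and at 4 h 1 and 6 in place of 1 and 1. Among all genes called in Ctrl at 6 h, 889 of 4577 were then higher, against 1626 of 2826 with TMM, and at 4 h 841 of 4658 against 1572 of 2594. Hspa1b kept its call in Ctrl at 2 h (1.96) and 4 h (1.39) and in DI at 6 h (1.97), and was not called in Ctrl at 6 h (1.12, edgeR adjusted p = 0.0890). Dnaja1 in Ctrl at 6 h was then 0.54 (adjusted p = 0.274), and Dnajb1 at 6 h was 0.48 in Ctrl (adjusted p = 0.349) and 0.76 in DI (adjusted p = 0.172). Hsph1 fell further, by 2.56 on the log2 scale in Ctrl at 4 h. Between the arms the median of all genes shifted by 0.18 at 4 h and 0.19 at 6 h with library totals, and by 0.10 and 0.12 with TMM factors of genes of at least 32 CPM. Of all genes called between the arms at 6 h, 559 of 1513 were higher in DI with TMM, 697 of 1482 with TMM of the abundant genes and 800 of 1499 with library totals, and at 4 h 366 of 1006, 477 of 999 and 563 of 1002. At 6 h both of these scalings called Hspa1b and Hsp90ab1 higher and no member lower, in place of Hspa1b higher and Dnaja1 lower (-1.04 with library totals, adjusted p = 0.0940).

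**Figure D5:**
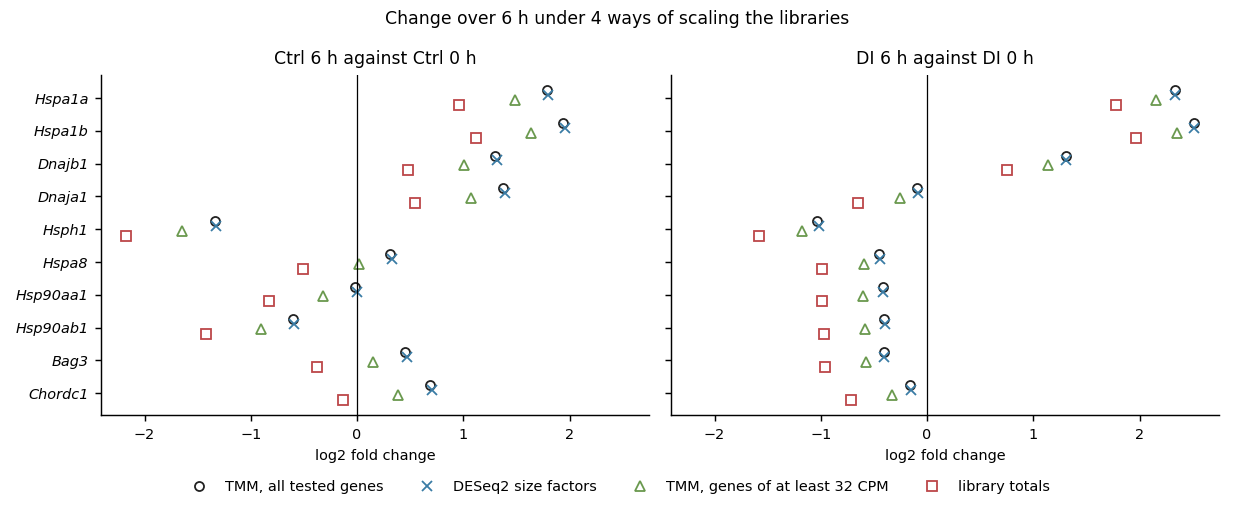
Log2 fold change from 0 to 6 h (horizontal axes) of the 10 chaperones in Ctrl and in DI under 4 ways of scaling the libraries: TMM on all tested genes (black circles), DESeq2 size factors (blue crosses), TMM on genes of at least 32 CPM (green triangles) and library totals (red squares). Library totals move every gene to the left, and Hspa8, Bag3 and Chordc1 change sign in Ctrl, while Hspa1a, Hspa1b, Dnajb1 and Dnaja1 stay above 0 there.

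The spread between the 2 libraries of a group was wider in DI for 9 of the 10 members. The mean coefficient of variation over the 5 times ran from 11.4% (Hsp90ab1) to 34.6% (Dnaja1) in Ctrl and from 15.8% (Hsp90ab1) to 74.4% (Hspa1a) in DI, and its median over all tested genes was 19.0% in Ctrl and 31.99% in DI. The exception was Dnaja1, at 34.6% in Ctrl and 32.5% in DI. Over the 10 group means, the highest correlations between members' log2 levels were those of Hsph1 with Hsp90ab1 (Pearson r = 0.87), Hsp90aa1 with Hsp90ab1 (0.85), Hsph1 with Hsp90aa1 (0.77) and Hspa1a with Hspa1b (0.77), and the lowest that of Hspa1a with Hsph1 (-0.38). These describe 10 points that share libraries and scaling.

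The wider chaperone system was looked at through 8 lists of 78 genes, of which 60 were tested. In DI against Ctrl, 1 of the 60 was called higher and 0 lower at 0 h, 1 and 0 at 1 h, 2 and 2 at 2 h, 2 and 0 at 4 h, and 2 and 6 at 6 h, where 3.60%, 4.89%, 6.24%, 9.43% and 14.2% of all tested genes were called in either direction. Of the 13 tested J-domain genes, 5 were lower at 6 h (8.95% of all genes) and 1 higher. No gene of the HSF regulators (3 of 6 tested), the small heat shock proteins (1 of 9 tested) or the TRiC chaperonin (7 of 8 tested) was called in any contrast. None of the 8 nucleotide exchange and other HSP70 cofactors was called between the arms. Hsf1, the regulator itself, lay between 0.908 and 13.6 CPM. The small heat shock protein genes Hspb1, Cryab and Hspb8, classical HSF1 targets in other tissues, had at most 36, 13 and 2 reads in any library.

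Dnajb4, a J-domain partner of HSP70 related to Dnajb1, was higher in DI by 1.63 ± 0.43 at 0 h (edgeR adjusted p = 0.0304), 1.97 ± 0.44 at 1 h (adjusted p = 0.00637), 1.46 ± 0.44 at 4 h (adjusted p = 0.0341) and 2.53 ± 0.47 at 6 h (adjusted p = 5.34e-04). At 2 h its difference was 0.07 ± 0.42 (edgeR adjusted p = 0.955). Its Ctrl libraries were at 19.8 to 26.0 CPM at 0 h and 6.58 to 16.5 at 6 h, and its DI libraries at 64.8 to 76.7 and 64.6 to 66.8, with no overlap between the arms at either time. Hspa4l, an HSP110 relative of Hsph1, was higher in DI at 4 h (1.17 ± 0.28, adjusted p = 0.00874) and 6 h (1.51 ± 0.29, adjusted p = 6.08e-04). It was at 173 to 221 CPM in DI and 82.4 to 93.4 in Ctrl at 4 h, and from 0 to 4 h it rose by 1.18 ± 0.28 in Ctrl (adjusted p = 0.00294) and 2.21 ± 0.29 in DI (adjusted p = 3.32e-06). Hspa2, an HSP70 best known from the testis, rose in Ctrl at 2 h by 3.57 ± 0.58 (adjusted p = 5.88e-05), to 38.1 to 45.8 CPM from 3.28 to 3.73 at 0 h, and was lower in DI at that time by 2.35 on the log2 scale (-2.35 ± 0.56, adjusted p = 0.0103).

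At most 3 genes of a list were named, those with the smallest p between the arms. Lower in DI at 6 h were also Dnajc2, a ribosome-bound J-domain protein (-1.28 ± 0.28, edgeR adjusted p = 0.00277), Dnajb14, a J-domain protein of the endoplasmic reticulum membrane (-1.17 ± 0.32, adjusted p = 0.0154), and Ttc4, an HSP90 co-chaperone (-1.66 ± 0.50, adjusted p = 0.0260). At 2 h Tomm34, which bridges HSP70 and HSP90 (1.15 ± 0.34, adjusted p = 0.0412), and Dnaja3, the mitochondrial J-domain protein (1.55 ± 0.44, adjusted p = 0.0364), were higher in DI.

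Genes other than the 10 members were ranked by how alike their pattern was over the 10 group means of log2 level. The ranking covered 4956 tested genes of at least 20 CPM and did not leave out the related lists. Nearest to the average of the 10 members were Bcl2l2 (Pearson r = 0.84), Cenpc1 (0.82), Pdpk1 (0.81), Prpf3 (0.79) and Bud31 (0.79). Nearest to Dnajb1 were Mkrn1 (0.96), Evl (0.94), Hmbox1 (0.93), Zbtb6 (0.93) and Camsap1 (0.92). Over the 20 libraries in place of group means, 1 of the first 5 (Prpf3) and 2 of the second 5 (Evl and Mkrn1) were again among the nearest 5. Grpel1, from the related list of mitochondrial chaperones, was then at rank 2 for the average of the members (Pearson r = 0.71).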

How the data were processed

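Poly(A) RNA was reverse transcribed from barcoded oligo-dT primers, so reads come from the 3' end of transcripts. The cDNA was pooled by Actb measured with qPCR and amplified for 12 cycles into strand-specific libraries, per the labels' protocols. No molecular identifiers are named, so reads are not independent molecules. Alignment and counting tools (STAR, HTSeq), DESeq2 and the build mm10 are named, without versions, per the submitters' processing notes. The authors deposited unnormalized whole-number read counts for each Ensembl gene in each library. Symbols came from GENCODE M21 (GRCm38), which matched 21745 of 22165 genes.

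In R 4.3.3, genes were filtered with edgeR 4.0.16 (filterByExpr by group), scaled by TMM and fitted with 1 quasi-likelihood model (glmQLFit, robust) of 10 groups. The 17 contrasts were DI against Ctrl at 5 times, each stimulated time against 0 h within each arm, and the 4 differences between those responses. Standard errors came from the F statistic, and intervals are 95%. Alternatives used DESeq2 1.42.0, other scalings and filters, left-out libraries, the replicate number as a block, and counts divided by reads per molecule. The code was tested on simulated counts. The members and gene lists were chosen with earlier results of these data known. Of the related lists, at most 3 genes each were named, those with the smallest p among genes called between the arms. The nearest genes were the 5 with the highest Pearson r over group means. Marker sums are scaled to library totals without TMM. The result of 1 marker list is not reported here. Promoter windows are RefSeq's (GRCm38.p6), for 7 of 10 members.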

Additional observations from a re-analysis of the deposited data

How the results depend on the processing

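Tracked were 51 fold changes of members called in the main edgeR model or in an alternative other than leaving out libraries. Over the alternatives they kept direction and side of the threshold 559 times, lost a call 54 times, gained one 73 times and changed sign 12 times. Staying uncalled counts as kept, and only values called in the main model can lose a call. The 559 therefore do not measure how stable the calls were. Hspa1a and Hspa1b had low counts in some DI libraries: the 9 Hspa1b reads of the second DI 4 h library stand for an estimated 0.879 molecules. An estimate under 1 molecule where reads were seen is rough. Hspa1b kept its calls for DI against Ctrl at 6 h, for Ctrl at 2 and 4 h and for DI at 6 h. This held under every other scaling, filter, tool and fit run, apart from leaving out single libraries and adding the Hspa1a counts. With those counts added, DI against Ctrl at 6 h was 1.30 and not called (edgeR adjusted p = 0.0771). Dnaja1 in DI against Ctrl at 6 h and both Dnajb1 rises lost their calls under 2 of the 3 other scalings.

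The counts below come without the share of all genes called in the same fit, also those with 1 library left out. They do not show whether the members moved more than other genes. Counts of members called that moved by over 1.5 times were as follows. Without a filter on low counts, DI against Ctrl called 1, 2 and 3 members at 0, 2 and 4 h (in place of 0, 0 and 1), DI called 2, 3 and 4 at 2, 4 and 6 h (in place of 0, 1 and 2), and the response difference called 1 at 4 h and 1 at 6 h (in place of 0). DESeq2's Wald test called 2, 1 and 2 in DI against Ctrl at 0, 2 and 4 h, 1 and 2 in DI at 2 and 4 h, and 1 response difference at 4 h. Counts per estimated molecule called 1, 1 and 0 in DI against Ctrl at 0, 2 and 4 h and 2 in Ctrl at 2 h. Fitting only the groups compared called 1 in DI against Ctrl at 6 h, 2 in Ctrl at 2 h and 0 in DI at 4 h. Without the 3 DI libraries that list the most genes at 0, DI against Ctrl at 4 h and DI at 4 h against 0 h each called 0. TMM factors of genes of at least 32 CPM called 0 in Ctrl at 1 h and 2, 4 and 1 in DI at 2, 4 and 6 h. Library totals without TMM factors, added after seeing the data, called 0, 4 and 7 in Ctrl at 1, 2 and 4 h and 4, 6 and 4 in DI at 2, 4 and 6 h. Smaller moves were 3 in place of 2 in DI against Ctrl at 6 h with no filter, in Ctrl at 4 h with TMM of genes of at least 32 CPM, and in DI at 6 h with DESeq2's Wald test, counts per estimated molecule and without the 3 DI libraries. In Ctrl at 6 h, 6, 5 and 3 were called in place of 4 with only the groups compared, counts per estimated molecule and library totals. The cause of these moves was not tested. Under library totals all genes shifted, and 2 of the settings used fewer libraries.

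The correlations do not show that the replicate numbers pair the libraries: over 45 pairs of groups and 3951 genes, same-numbered deviations correlated at -0.49 to 0.39, with a median of -0.01, and 8 pairs were over 0.1. Replicate 1 had the higher mitochondrial share of reads in 5 of 5 Ctrl and 5 of 5 DI groups, and replicate 2 the more reads per molecule in 5 of 5 DI groups. With the replicate block, DI against Ctrl at 6 h called 1 member in place of 2 (Hspa1b kept, Dnaja1 at -1.26, edgeR adjusted p = 0.0579) and Ctrl at 1 h called 0 in place of 1 (Hspa1b at 1.77, adjusted p = 0.0571).

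Leaving out 1 library at a time, members called in DI against Ctrl ranged over 0 to 1 at 0 h, 0 to 1 at 1 h, 0 to 1 at 2 h, 0 to 2 at 4 h and 0 to 2 at 6 h. In Ctrl they ranged over 0 to 0 at 1 h, 1 to 1 at 2 h, 1 to 2 at 4 h and 1 to 2 at 6 h, and in DI over 0 to 1 at 1 and 2 h, 0 to 3 at 4 h and 1 to 2 at 6 h. The response difference called 0 to 1 at 4 h and 0 at the other times.

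Over all 170 fold changes of members, 4 changed sign with DESeq2 size factors, 7 with TMM of genes of at least 32 CPM and 19 with library totals (such as Hspa8, from 0.31 to -0.50, and Bag3, from 0.45 to -0.38, in Ctrl at 6 h), 0 of them called with TMM. Changes of sign among the 51 tracked, none of a called value, were as follows. Hsp90aa1 in Ctrl at 4 h (0.11) became -0.23 with TMM of genes of at least 32 CPM, -0.75 with library totals (called, edgeR adjusted p = 0.0281) and -0.11 to 0.35 without either Ctrl 0 h library, the lower value without the first. Hsp90aa1 in Ctrl at 6 h (-0.02) became 0.000865 with DESeq2 size factors, 0.000766 with DESeq2's Wald test, 0.034 with only the groups compared, 0.22 without the second Ctrl 0 h library and 0.08 without the first Ctrl 6 h library. Chordc1 in Ctrl at 6 h (0.69) became -0.14 with library totals. Hsph1 in DI at 6 h (-1.04) ran from -1.71 to 0.26 without 1 library, the highest value without the second DI 0 h library, Hspa8 in Ctrl at 4 h (-0.13) from -0.45 to 0.13, the highest without the second Ctrl 4 h library, and Hsp90ab1 in Ctrl at 2 h (-0.19) from -0.52 to 0.23, the highest without the second Ctrl 0 h library.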
